A study of Mus musculus with 6 samples.

Results

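The genes described here encode the machinery that brings new secretory proteins into the endoplasmic reticulum (ER) and carries them onward in coated vesicles. They were chosen by gene symbol alone, and the symbols took in 65 of the 23284 genes listed in the count tables. RNA was measured by paired-end RNA-seq in livers of 8-week-old C57BL/6 mice, male by the study's methods, with 3 mice given FGF19 and 3 given vehicle. FGF19 is a human gut hormone whose mouse counterpart is FGF15, and hepatocytes carry its receptor. All 6 mice were fasted overnight, FGF19 was given at 1 mg/kg, and livers were taken after 6 h during which the fast went on in both groups. The sources used here give neither the route of the injection nor the composition of the vehicle, and no group received another protein in place of FGF19.

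A protein bound for secretion is recognised by its signal peptide as it leaves the ribosome. The signal recognition particle (SRP) and its receptor bring the ribosome to the ER membrane, where the SEC61 channel, helped by the TRAP complex, takes in the growing chain. Signal peptidase removes the signal peptide, and oligosaccharyltransferase moves a preformed glycan onto asparagine residues of the chain. Vesicles with a COPII coat carry folded cargo from the ER to the Golgi, and vesicles with a COPI coat carry escaped ER proteins and receptors back. The p24 proteins (Tmed genes) travel in both kinds of vesicle as cargo receptors, and SNARE proteins such as SEC22B drive fusion. Hepatocytes make most plasma proteins and depend heavily on this route.

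After FGF19 treatment 24 of the 61 tested genes of this machinery were higher than with vehicle in the quasi-likelihood test of edgeR (adjusted p under 0.05, by Benjamini-Hochberg over all 12559 genes tested). That is 39.3% of them, where 4.56% of all genes tested were called higher. None was called lower (0 of 61, where 2.84% of all genes tested were called lower). At an unadjusted p under 0.05 in edgeR, 3 had a lower level, where 1417 of all 12559 genes tested did. DESeq2 and limma-voom also called 0 lower, where they called 511 and 358 of all genes lower. In 43 of the 61 every FGF19 library was above every vehicle library, against 14.5% of all genes tested, and in 4 every FGF19 library was below, against 13.8%. The log2 fold change was above 0 in 52 of the 61, against 49.9% of all genes, and its median was 0.33 where the median of all genes tested was -0.00. At p under 0.01 without adjustment, 30 were higher, where 6.2% of all genes were. The study's methods give a threshold of p under 0.01 and do not say whether it was adjusted. Levels are given in CPM, counts scaled to the size of each library with TMM factors, as mean ± SD of 3 libraries. Summed over all 65 genes, vehicle libraries held 4395 ± 78.0 CPM and FGF19 libraries 5808 ± 392 CPM (n = 3 each). The 24 genes rose by 1.26-fold to 2.19-fold, the adjusted p (edgeR) ran from 0.000521 to 0.0386, and in each of them the groups did not overlap. The number called higher fell to 15 when vehicle replicate 3 was left out, and was 34 without FGF19 replicate 3.

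Total counts were between 18994654 and 22920056 per library, so that 3 counts, the upper limit that a count of 0 allows for independent counts, correspond to between 0.131 and 0.158 CPM, which covers counting error only. Each mate of a pair was counted as its own read, so counts are not independent and the limit is higher than this. FGF19 replicate 3 was farther from the other FGF19 libraries than these were from each other. Chi-square over genes, divided by its degrees of freedom, was 8.25 between FGF19 replicates 1 and 2, and 29.7 and 39.4 between each of these and replicate 3. Vehicle libraries differed from each other by 15.7 to 28.1 on this measure, so the distance of FGF19 replicate 1 from replicate 3 was close to the largest one among them. Hepatocyte markers were present at a summed level of 94216 to 98763 CPM with vehicle and 87022 to 98481 CPM with FGF19, and none of the 6 passed the edgeR test (adjusted p between 0.125 and 0.841). Of the markers of other cells, Cd68 and Marco (2 of 7 macrophage genes tested), S100a9 (1 of 3 neutrophil genes) and Derl3 (1 of 5 plasma and B cell genes) were higher. The summed level of the macrophage list was 184 to 232 CPM with vehicle and 191 to 225 CPM with FGF19, that of the neutrophil list 2.34 to 3.72 and 6.07 to 8.82 CPM, and that of the plasma and B cell list 4.29 to 7.10 and 27.8 to 56.9 CPM. Derl3, which also encodes a protein of ER-associated degradation, accounted for the whole of the last rise, since the summed level of the plasma and B cell list without it did not rise, at 2.95 to 5.61 CPM with vehicle and 1.04 to 3.03 CPM after treatment, with overlap, and Tnfrsf17 was at 0 in every library. The lowest adjusted p among the tested markers of T cells, endothelium, stellate cells, cholangiocytes and pancreatic acinar cells was 0.0736 (Clec4g, edgeR), while without FGF19 replicate 3 Clec4g and Epcam were lower (adjusted p of 0.0109 and 0.0468) and Lrat was higher (0.0325). The macrophage list did not move one way, as Vsig4, Clec4f and Cd5l had log2 fold changes of -0.54, -0.29 and -0.22 that did not pass (edgeR), and without FGF19 replicate 3 Vsig4 was lower (adjusted p = 0.0339) while Emr1 and, on the neutrophil list, Csf3r were higher (0.0397 and 0.0301). The part of the macrophage and neutrophil markers in the rise of the secretory genes was not tested. In bulk liver RNA, a change in the number of cells of a type and a change in RNA per cell cannot be told apart.

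**Figure D1:**
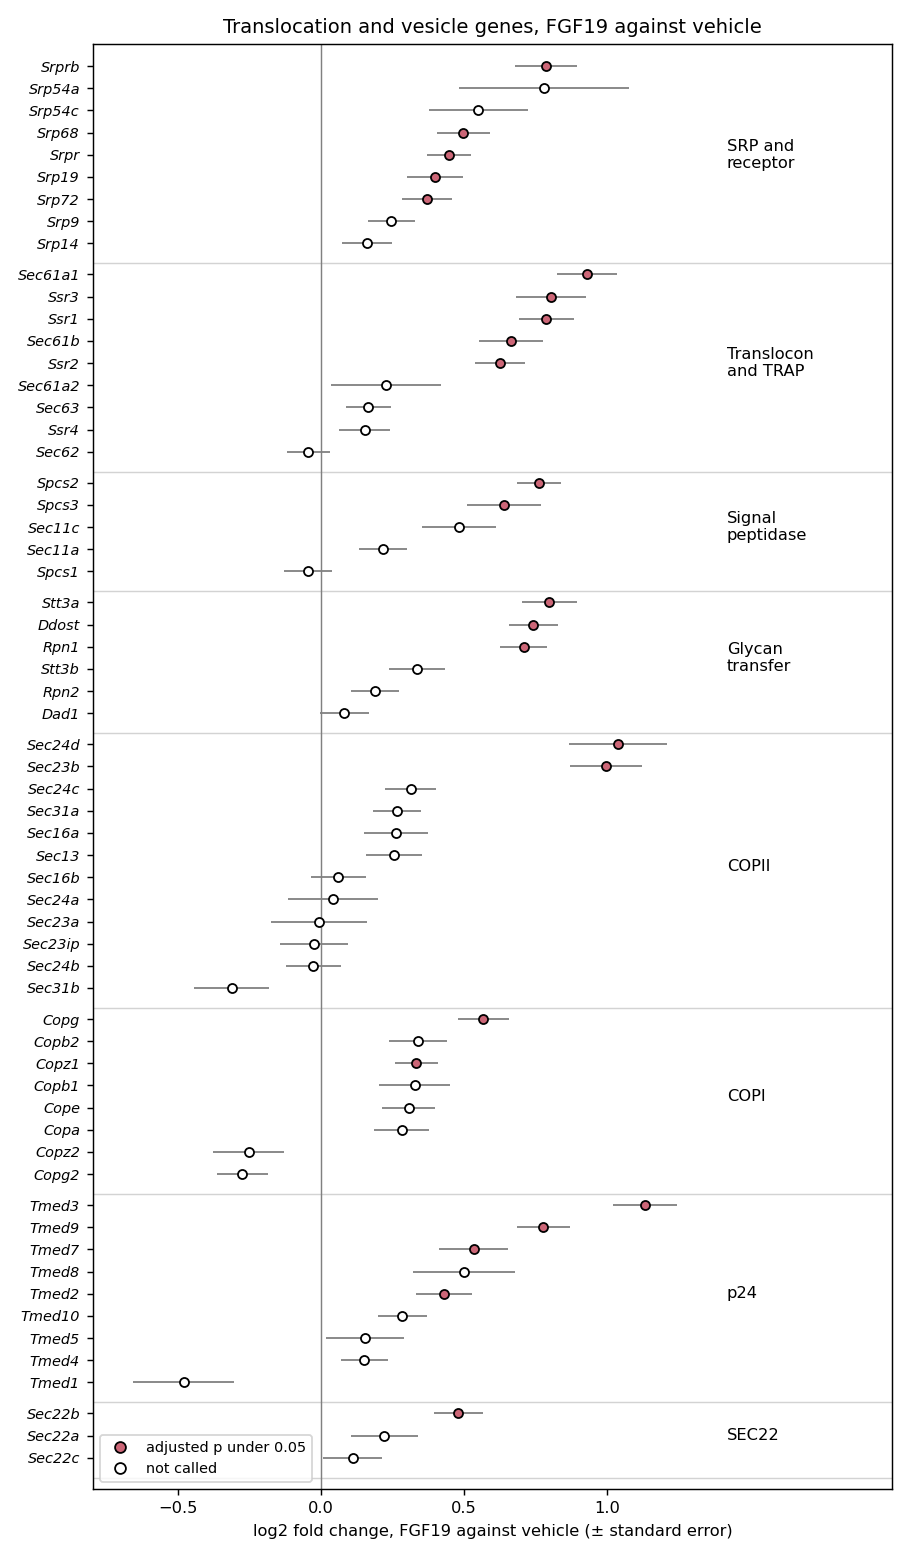
Log2 fold change of each of the 61 tested genes, FGF19 (n = 3) against vehicle (n = 3), with bars of 1 standard error from edgeR, grouped by step of the pathway. Filled points mark the 24 genes with an adjusted p under 0.05, which all lie to the right of 0, from 0.33 to 1.13.

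Among the genes of the signal recognition particle and its receptor, 5 of 9 tested were higher and the median log2 fold change was 0.45. Both subunits of the receptor were among them. Srprb (chr9:103090363-103104395, mm9), which encodes the membrane-spanning beta subunit, was at 25.4, 24.8 and 21.9 CPM in vehicle replicates 1 to 3 and at 42.5, 45.0 and 36.8 CPM in FGF19 replicates 1 to 3. All FGF19 libraries were thus above all vehicle libraries. The log2 fold change was 0.79 (SE, the standard error, 0.11, with an adjusted p of 0.00293 in edgeR) and the call held with each library left out. Srpr (chr9:35018788-35024588), which encodes the GTPase subunit that docks the particle, was at 244, 243 and 245 CPM with vehicle and at 325, 339 and 333 CPM with FGF19. These levels varied little within each group, and the log2 fold change was 0.45 (SE 0.08, adjusted p = 0.00912, edgeR). Leaving out vehicle replicate 3 took the adjusted p to 0.0539. Srpr had the highest level per kb of exon of this group, at 83.1 ± 0.378 CPM per kb with vehicle and 113 ± 2.28 CPM per kb with FGF19 (SD, n = 3). It shares exon positions with Fam118b, and because strand was not used in counting its counts are uncertain to that extent.

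Of the protein subunits of the particle itself, Srp68 and Srp72, which bind its RNA as a pair, and Srp19, which helps assemble it, were called higher, and Srp9 and Srp14, which slow elongation of the chain, were not. Srp68 rose from 51.3 ± 2.36 to 72.5 ± 6.18 CPM (SD, n = 3; log2 fold change 0.50, adjusted p = 0.0130, edgeR). Srp72 rose from 103.6 ± 1.89 to 134 ± 10.99 CPM (0.37, adjusted p = 0.0348) and Srp19 from 16.5 ± 0.263 to 21.8 ± 1.31 CPM (0.40, adjusted p = 0.0386). These 3 calls were the least firm of the group. Those of Srp72 and Srp19 were kept in 1 of the 6 fits with a library left out, the fit without FGF19 replicate 3, and the adjusted p in the other fits was 0.0920 to 0.137 for Srp72 and 0.0727 to 0.149 for Srp19. Srp72 also failed without TMM scaling (adjusted p = 0.0541, edgeR) and Srp19 without the filter on low counts (0.05004). Both failed with the replicate number as a block (0.109 and 0.133). The call of Srp68 was lost without FGF19 replicate 1 or 2 or vehicle replicate 1 or 3 (adjusted p 0.0520 to 0.0761, edgeR). Srp9 was at 27.8 ± 0.582 and 32.9 ± 0.660 CPM and Srp14 at 29.9 ± 0.468 and 33.4 ± 2.04 CPM with vehicle and FGF19, with no overlap in either gene and adjusted p of 0.112 and 0.323. SRP54, the subunit that binds the signal peptide, is encoded by near-identical copies whose counts are uncertain. Srp54c was at 5.497 ± 0.392 and 8.05 ± 1.58 CPM (adjusted p = 0.0916, and 0.0114 without FGF19 replicate 3), Srp54a was at 1.13 ± 0.221 and 1.95 ± 0.600 CPM (adjusted p = 0.153, and 0.0476 without that library), and Srp54b had 0 counts in every library. The number of the group called higher was 1 without vehicle replicate 3, 2 without FGF19 replicate 1 or 2 or vehicle replicate 1, 3 without vehicle replicate 2 and 7 without FGF19 replicate 3.

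The channel and TRAP genes had a median log2 fold change of 0.63, and 5 of 9 tested were higher, a count that was 5 in every fit that left out a library. Sec61a1 (chr6:88453601-88468794), which encodes the pore-forming subunit of the channel, was at 129, 139 and 116 CPM with vehicle and at 254, 260.1 and 217 CPM with FGF19. The lowest FGF19 library, replicate 3, was still well above the highest vehicle library. The log2 fold change was 0.93 (SE 0.10, adjusted p = 0.00108, edgeR). Sec61b, a small subunit of the channel, rose from 24.3 ± 3.13 to 38.5 ± 2.37 CPM (log2 fold change 0.66, adjusted p = 0.00837). Sec61g, the other small subunit, was not tested, as it had 7, 9 and 6 counts with vehicle and 13, 17 and 10 with FGF19. Sec61a2, a second gene for the pore subunit, was at 4.62 ± 0.767 and 5.39 ± 1.03 CPM, where the groups overlapped (adjusted p = 0.540).

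Of the TRAP subunits, Ssr1, Ssr2 and Ssr3 were higher and Ssr4 was not called. Ssr1 (chr13:38063270-38086059) was at 81.2, 77.4 and 76.3 CPM with vehicle and at 135, 149 and 122 CPM with FGF19. Its groups did not overlap, and its log2 fold change was 0.79 (SE 0.10, adjusted p = 0.00160, edgeR). Ssr2 rose from 61.6 ± 4.45 to 95.0 ± 2.60 CPM (log2 fold change 0.63, adjusted p = 0.00307). Ssr3 rose from 186 ± 11.5 to 325 ± 52.3 CPM (log2 fold change 0.80, adjusted p = 0.00503), and had the highest level per kb of the group over both treatments. On that scale it was at 64.5 ± 3.999 CPM per kb with vehicle, below Ssr4 at 78.0 ± 3.92, and at 113 ± 18.1 CPM per kb with FGF19. Ssr4 was at 62.7 ± 3.15 and 69.7 ± 5.44 CPM, with no overlap between the groups and an adjusted p of 0.363. Sec62 and Sec63, which help chains that reach the channel after synthesis, did not pass the test. Sec63 was at 175 ± 0.830 and 196 ± 8.40 CPM (adjusted p = 0.249), and Sec62 was at 159 ± 3.19 and 154 ± 1.94 CPM (adjusted p = 0.779), the one gene of the group with a log2 fold change under 0, and every FGF19 library was below every vehicle library.

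Signal peptidase is a small complex with a catalytic subunit, SEC11A or SEC11C, and accessory subunits encoded by the Spcs genes. Among its 5 genes Spcs2 and Spcs3 were higher and the median log2 fold change was 0.48. Spcs2 (chr7:106986079-107007393) was at 60.1, 61.6 and 60.7 CPM with vehicle and at 104, 106 and 99.6 CPM with FGF19. Libraries of a group were close to each other, and the log2 fold change was 0.76 (SE 0.08, adjusted p = 0.000628, edgeR), with a range of 0.75 to 0.79 when libraries were left out in turn. Spcs3 (chr8:55605787-55615351) was at 45.4, 46.1 and 42.6 CPM with vehicle and at 76.7, 77.3 and 55.0 CPM with FGF19. FGF19 replicate 3 lay between the vehicle libraries and the other FGF19 libraries. The log2 fold change of Spcs3 was 0.64 (SE 0.13, adjusted p = 0.0190), and 0.79 without that library (adjusted p = 0.000488). The call was lost without FGF19 replicate 1 or 2 or vehicle replicate 1 or 3, at adjusted p of 0.0625 to 0.0984 in the edgeR test.

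The catalytic subunits did not pass the test with all libraries. Sec11c was at 15.3 ± 2.40 and 21.4 ± 1.35 CPM with vehicle and FGF19, with no overlap between the groups (log2 fold change 0.48, adjusted p = 0.0552, edgeR). It passed without vehicle replicate 2 (adjusted p = 0.0424), as well as with DESeq2 (adjusted p = 0.0305) and limma-voom (adjusted p = 0.0498). Sec11a was at 33.2 ± 1.55 and 38.6 ± 0.594 CPM (adjusted p = 0.157). Spcs1 was at 52.1 ± 2.49 and 50.5 ± 1.70 CPM, with overlapping groups and an adjusted p of 0.793. It had the highest level of the complex per kb, at 51.8 ± 2.47 and 50.2 ± 1.69 CPM per kb with vehicle and FGF19, and it shares exon positions with Glt8d1. The number of the complex called higher was 1 without FGF19 replicate 1 or 2 or vehicle replicate 1 or 3, and 3 without vehicle replicate 2.

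Of the 6 oligosaccharyltransferase genes taken in by symbol, 3 were higher, and the median log2 fold change was 0.52. Among subunit genes outside that choice, Ostc and Krtcap2 were called higher (adjusted p of 0.00339 and 0.0189, edgeR). The call of Krtcap2 was kept in 2 of the 6 fits that left out a library. Magt1 and Tusc3 were not called (adjusted p of 0.191 and 0.744). Ddost (chr4:137860653-137868526), an accessory subunit, was at 66.8, 74.3 and 64.8 CPM with vehicle and at 116, 112 and 116 CPM with FGF19. Its log2 fold change was 0.74 (SE 0.09, adjusted p = 0.00124, edgeR). Rpn1 (chr6:88034467-88055298), which encodes ribophorin I, was at 124, 120.3 and 123 CPM with vehicle and at 202, 211 and 187 CPM with FGF19. Its log2 fold change was 0.71 (SE 0.08, adjusted p = 0.00126). The groups were far apart in both genes compared with the spread within them, and both calls held with each library left out. The catalytic subunit that works on chains as they enter the channel, Stt3a, rose from 79.3 ± 5.08 to 138 ± 12.5 CPM (log2 fold change 0.80, adjusted p = 0.00161). Its paralog Stt3b, which acts on sites missed at entry, was at 99.5 ± 4.07 and 126 ± 13.1 CPM (log2 fold change 0.33, adjusted p = 0.0726), and passed without FGF19 replicate 3 (adjusted p = 0.00858, edgeR). Rpn2, encoding ribophorin II, had the highest level per kb of the 6 taken in by symbol, at 53.0 ± 3.22 and 60.4 ± 2.14 CPM per kb. Its groups did not overlap and its log2 fold change of 0.19 did not pass the test (adjusted p = 0.223), and it shares exon positions with 4922505G16Rik. Dad1 was at 57.8 ± 0.674 and 61.2 ± 4.84 CPM (adjusted p = 0.640).

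**Figure D2:**
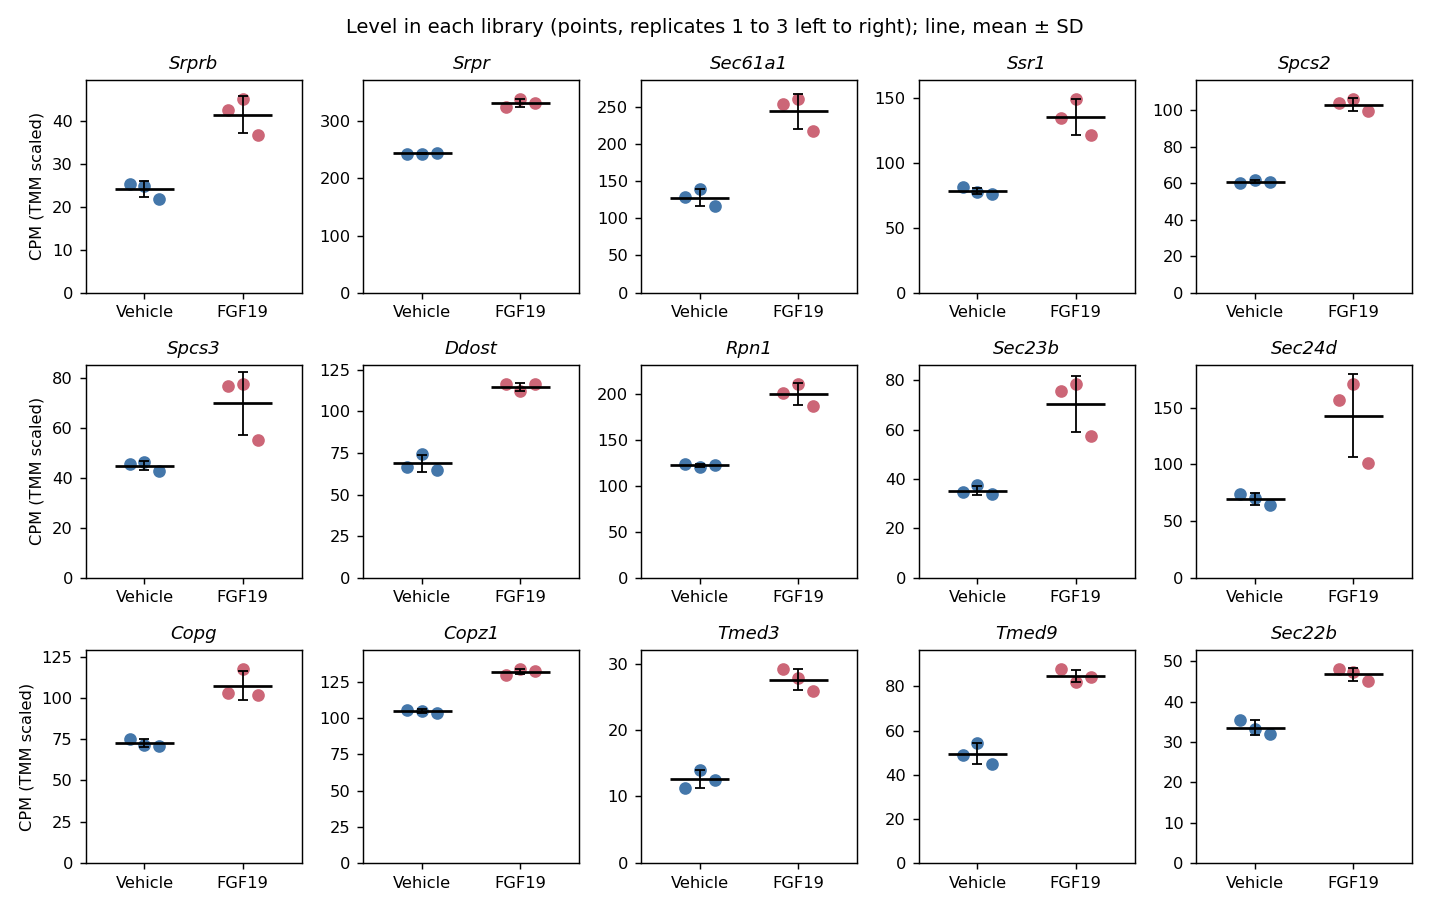
Level of 15 genes in each library in CPM, with vehicle on the left and FGF19 on the right of each panel, replicates 1 to 3 from left to right, and the mean with its SD (n = 3). The genes are those with the lowest p in each step, up to 2 per step, and in every panel the 3 FGF19 points lie above the 3 vehicle points, with FGF19 replicate 3 set below its group in Sec24d, Sec23b and Spcs3.

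Of the 12 COPII genes taken in by symbol 2 were higher, Sec23b and Sec24d, and the median log2 fold change was 0.16. Both encode proteins of the inner coat layer, in which SEC23 switches off the GTPase SAR1 and SEC24 binds cargo. Sec23b (chr2:144381965-144416489) was at 34.6, 37.5 and 33.8 CPM with vehicle and at 75.6, 78.3 and 57.3 CPM with FGF19, a log2 fold change of 1.00 (SE 0.12, adjusted p = 0.00177, edgeR). Sec24d (chr3:122970414-123068554) was at 74.2, 69.9 and 64.2 CPM with vehicle and at 157, 171 and 101 CPM with FGF19, a log2 fold change of 1.04 (SE 0.17, adjusted p = 0.00771). In both genes FGF19 replicate 3 was the lowest of its group and still above every vehicle library. Without it the log2 fold changes were 1.13 and 1.24.

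The paralogs of these genes did not pass the test. Sec23a was at 93.6 ± 15.2 CPM with vehicle and 93.1 ± 19.8 CPM with FGF19 (log2 fold change -0.01, adjusted p = 0.984, edgeR), Sec24a at 93.3 ± 6.51 and 96.0 ± 22.6 CPM (adjusted p = 0.907), and Sec24b at 25.8 ± 1.63 and 25.3 ± 1.69 CPM (adjusted p = 0.902). The groups overlapped in all 3, and the sign of the difference changed with the library left out. Sec24c was at 104 ± 2.78 and 129 ± 10.96 CPM, with no overlap (log2 fold change 0.31, adjusted p = 0.0697, and 0.00938 without FGF19 replicate 3). In the outer coat layer, Sec13 was at 57.5 ± 2.49 and 68.6 ± 7.25 CPM (adjusted p = 0.155). It had the highest level per kb of the 12 genes taken in by symbol, at 44.2 ± 1.91 and 52.7 ± 5.57 CPM per kb. Its partner Sec31a was at 145 ± 2.33 and 174 ± 12.1 CPM (adjusted p = 0.0958, and 0.0158 without FGF19 replicate 3), while Sec31b was at 7.50 ± 0.2998 and 6.03 ± 0.452 CPM, with every FGF19 library below every vehicle library (log2 fold change -0.31, unadjusted p = 0.0409, adjusted p = 0.196, edgeR). Sec16a and Sec16b, which mark the ER exit sites where the coat assembles, had log2 fold changes of 0.26 and 0.06 with overlapping groups (adjusted p of 0.205 and 0.772). Sec23ip, whose product binds SEC23, was at 25.6 ± 1.48 and 25.2 ± 3.56 CPM (adjusted p = 0.926). The adjusted p of Sec16a was 0.00849 without FGF19 replicate 3, and the number of COPII genes called was then 5.

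Promoter sequences are shown for COPII genes because one letter string recurred among them in genes that were called and genes that were not. The COPII genes were singled out after the matches were seen, so the shares given below are a description and test nothing. RefSeq promoter windows of 300 bases (250 before to 50 after the start) could be matched by symbol for 56 of the 65 genes, 53 of them tested. Those without a window were mostly called higher (Srp68, Srp19, Tmed7, Ssr2, Tmed2, Sec61a1 and Spcs3). The others were Sec11c, not called, and Tmed11, not tested. The string TGACGTGG, the core of a motif known from genes of the unfolded protein response, was searched on both strands. A gene was counted if any of its windows held the string. It was present in 5 of the 53 genes (Sec16b, Sec23a, Sec24d, Copb1 and Copb2), that is in 1 of the 17 called and 4 of the 36 not called. Of all 27025 genes with a window, 0.714% hold it. The string TGCCACG was present in 7 genes, 6 of them among the 12 COPII genes (Sec13, Sec16b, Sec23a, Sec24c, Sec24d and Sec31a), against 2.72% of all genes with a window. The seventh was Tmed3. In Sec24d, Sec23a and Sec16b the 2 strings overlap, one on each strand, in a run of 10 letters, which is in 0.0518% of all genes with a window. These 3 promoters follow with that of Tmed3, read 5′ to 3′ on the strand of the gene from 250 bases before to 20 bases after the start, with the matched letters in capitals. The sequences are from RefSeq (GRCm38.p6) and were placed on mm9 by an exact match.
Sec24d (chr3:122970164-122970433, plus strand): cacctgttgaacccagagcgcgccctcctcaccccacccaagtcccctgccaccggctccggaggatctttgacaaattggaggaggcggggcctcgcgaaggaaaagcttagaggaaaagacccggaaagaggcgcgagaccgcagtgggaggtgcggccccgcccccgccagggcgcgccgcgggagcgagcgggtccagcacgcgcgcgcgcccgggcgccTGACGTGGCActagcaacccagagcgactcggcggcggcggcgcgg
Sec23a (chr12:60112985-60113254, minus strand): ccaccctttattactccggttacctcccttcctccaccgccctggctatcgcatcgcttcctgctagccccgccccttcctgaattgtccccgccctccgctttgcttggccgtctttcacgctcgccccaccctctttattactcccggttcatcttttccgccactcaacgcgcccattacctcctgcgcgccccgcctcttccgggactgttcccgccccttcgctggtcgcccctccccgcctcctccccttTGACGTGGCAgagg
Sec16b (chr1:159436677-159436946, plus strand): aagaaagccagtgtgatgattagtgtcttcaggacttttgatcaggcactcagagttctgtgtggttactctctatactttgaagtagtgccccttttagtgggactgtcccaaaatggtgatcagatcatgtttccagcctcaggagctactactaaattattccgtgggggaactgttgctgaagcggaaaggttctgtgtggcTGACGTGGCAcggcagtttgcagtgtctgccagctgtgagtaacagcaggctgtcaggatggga
Tmed3 (chr9:89599862-89600131, minus strand): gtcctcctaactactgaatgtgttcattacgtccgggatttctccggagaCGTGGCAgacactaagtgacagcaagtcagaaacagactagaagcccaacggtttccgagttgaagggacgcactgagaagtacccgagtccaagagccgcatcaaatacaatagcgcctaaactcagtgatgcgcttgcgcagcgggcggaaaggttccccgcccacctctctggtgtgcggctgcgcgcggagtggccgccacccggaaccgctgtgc

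Counted from 1 at the first base of the gene and from -1 at the base before it, this run begins at position -26 in Sec24d, 7 in Sec23a and -44 in Sec16b. Of the 3 genes, Sec24d was called higher and Sec23a and Sec16b were not. In Tmed3, whose log2 fold change was the highest of all 61 genes, TGCCACG is on the opposite strand, its match beginning at position -200. The longer ER stress response elements ERSE and ERSE-II, which both contain the string CCACG, were in 0 of the 53 genes, against 0.137% and 0.0444% of all genes with a window. The strings GACGTGT (3 of 53 genes against 1.41% of all genes with a window), TGACGTCA (1 against 2.03%), TTCCNGGAA (1 against 1.35%), CACGTG (6 against 8.09%), TGATGNAA (0 against 4.51%), CCACG (37 against 35.5%) and CCAAT (26 against 41.1%) were also searched on both strands. A match is a description of letters in this window and not a site of binding.

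Of the 8 COPI genes taken in by symbol, 2 were higher and the median log2 fold change was 0.32. Arcn1, for the delta subunit, fell outside that choice and was called higher (log2 fold change 0.40, adjusted p = 0.0426, edgeR). Its call was kept in 1 of the 6 fits that left out a library. Copg (chr6:87837934-87863588), listed elsewhere as Copg1, encodes a gamma subunit of the coat and was at 75.2, 71.4 and 70.8 CPM with vehicle and at 103, 117 and 102 CPM with FGF19. Its log2 fold change was 0.57 (SE 0.09, adjusted p = 0.00545, edgeR), and the call held with each library left out. Copz1 (chr15:103103349-103130295), for the zeta subunit that pairs with gamma, was at 106, 105 and 104 CPM with vehicle and at 130.02, 134 and 133 CPM with FGF19. The spread within each group was small, and so was the rise, a log2 fold change of 0.33 (SE 0.08, adjusted p = 0.0293). This call was kept in 1 of 6 fits that left out a library, the one without FGF19 replicate 3, with adjusted p of 0.0822 to 0.131 in the others.

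The second genes for these subunits had lower means with FGF19. Copg2 was at 27.2 ± 0.493 and 22.4 ± 1.12 CPM, with every FGF19 library below every vehicle library (log2 fold change -0.28, unadjusted p = 0.0123, edgeR), which did not pass after adjustment. Copg2 shares exon positions with Mest. Copz2 was at 21.8 ± 1.49 and 18.2 ± 2.72 CPM, with overlap (adjusted p = 0.268). The other coat genes taken in by symbol, Copa, Copb1, Copb2 and Cope, had log2 fold changes of 0.28 to 0.34 and adjusted p between 0.0795 and 0.151. Cope had the highest level per kb, at 82.2 ± 0.914 and 101.6 ± 10.2 CPM per kb. Without FGF19 replicate 3, Copa (adjusted p = 0.0147), Copb1 (0.00595) and Copb2 (0.0102) passed and 5 COPI genes were called (Copa shares exon positions with Ncstn), while the count was 1 without any one of the other libraries.

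Among the p24 genes, 4 of 9 tested were higher and the median log2 fold change was 0.43. Tmed3 (chr9:89594041-89599881) was at 11.3, 14.0 and 12.5 CPM with vehicle and at 29.1, 27.8 and 25.9 CPM with FGF19. With a log2 fold change of 1.13 (SE 0.11, adjusted p = 0.000521, edgeR), it had the largest rise and the lowest p of all 61 genes tested. Tmed9 (chr13:55694496-55699055) was at 48.8, 54.5 and 45.0 CPM with vehicle and at 87.7, 82.2 and 84.3 CPM with FGF19, a log2 fold change of 0.78 (SE 0.09, adjusted p = 0.00154). Both calls held with each library left out, and FGF19 replicate 3 was close to the other FGF19 libraries in both. Tmed7 rose from 82.9 ± 0.493 to 119.9 ± 19.7 CPM (log2 fold change 0.53, adjusted p = 0.0279) and Tmed2 from 17.4 ± 0.335 to 23.5 ± 1.54 CPM (0.43, adjusted p = 0.0285). Their calls were kept only without FGF19 replicate 3 among the fits that left out a library, with adjusted p of 0.0744 to 0.112 for Tmed7 and 0.0647 to 0.112 for Tmed2 in the other 5, in each of which 2 p24 genes were called.

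The remaining p24 genes did not pass. Tmed10 was at 99.2 ± 4.62 and 121 ± 7.80 CPM, with no overlap (log2 fold change 0.28, adjusted p = 0.0821, edgeR). Tmed4 had the highest level of the family per kb over both treatments, at 46.8 ± 2.95 CPM per kb with vehicle and 51.9 ± 1.02 with FGF19 (adjusted p = 0.321), although with FGF19 alone Tmed9 was above it, at 58.4 ± 1.92 CPM per kb, and Tmed5, at 132 ± 20.9 and 146 ± 19.1 CPM, had overlapping groups (adjusted p = 0.560). Tmed8 was at 3.78 ± 0.282 and 5.35 ± 0.961 CPM (adjusted p = 0.130, and 0.0307 without FGF19 replicate 3). In Tmed1 every FGF19 library was below every vehicle library. It was at 8.86 ± 1.496 and 6.34 ± 1.06 CPM (log2 fold change -0.48, unadjusted p = 0.0221, adjusted p = 0.138), the lowest log2 fold change of the 61 genes, and it shares exon positions with Dnm2. Tmed6 had 3 counts in all and Tmed11 had 0, so neither was tested.

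Of the 3 SEC22 genes, Sec22b (chr3:97705150-97726241), which encodes the SNARE of traffic between ER and Golgi, was called higher. It was at 35.5, 33.1 and 32.1 CPM with vehicle and at 48.0, 47.5 and 45.0 CPM with FGF19, a log2 fold change of 0.48 (SE 0.09, adjusted p = 0.0108, edgeR). The groups were clearly apart, yet the adjusted p was 0.0534 without FGF19 replicate 1 and 0.0693 without vehicle replicate 3. It was also the highest of the 3 per kb, at 18.5 ± 0.969 and 25.8 ± 0.883 CPM per kb. Sec22a was at 13.03 ± 0.456 and 15.2 ± 1.63 CPM (adjusted p = 0.302) and Sec22c at 26.5 ± 2.34 and 28.6 ± 2.24 CPM (adjusted p = 0.590).

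Several of these proteins are encoded by a pair of genes, and the balance within 12 such pairs was compared as the log2 ratio of their levels within each library. Most pairs contain a gene called higher, so the ratios largely restate the calls given above, and they are a description with nothing read from their number. The mean ratio was higher with FGF19 for Copg over Copg2 (difference of 0.84 between the group means), Sec61a1 over Sec61a2 (0.71), Copz1 over Copz2 (0.60), Sec31a over Sec31b (0.58), Stt3a over Stt3b (0.47) and Sec16a over Sec16b (0.20). It was lower with FGF19 for Sec23a over Sec23b (-1.004), Sec24a over Sec24d (-0.99), Sec24c over Sec24d (-0.70), Sec11a over Sec11c (-0.27) and Sec22a over Sec22b (-0.27). The ratio of Sec24a to Sec24b differed by 0.04, with overlapping groups. As an example in full, the log2 ratio of Sec23a to Sec23b was 1.64, 1.05 and 1.501 with vehicle and 0.43, 0.45 and 0.30 with FGF19. With 3 libraries against 3, the two-sided exact permutation test cannot give a p under 0.1. It gave 0.8 for Sec24a and Sec24b and 0.1 for every other pair (0.109 after Benjamini-Hochberg adjustment over the 12), so that none passed 0.05. Sec24a and Sec24d are each in 2 pairs.

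**Figure D3:**
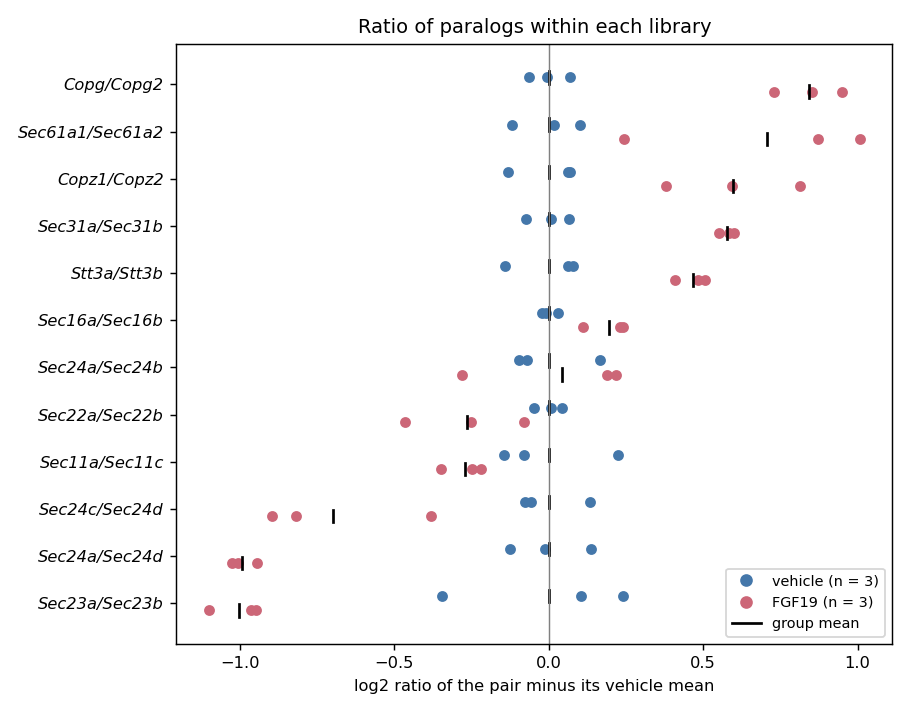
Log2 ratio of the levels of 12 pairs of related genes in each library, minus the mean of that pair's ratio over the vehicle libraries, with vehicle above and FGF19 below in each row (n = 3 each) and a bar at each group mean. Mean differences run from -1.004 (Sec23a/Sec23b) to 0.84 (Copg/Copg2), and the groups overlap in Sec24a/Sec24b.

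FGF19 replicate 3 differed from its group in a way that went with gene length. Over the 61 tested genes, the log2 of its level relative to the mean of FGF19 replicates 1 and 2 (with 0.5 CPM added to each level) had a Spearman rho of -0.62 with the exon length, and over all 12559 genes tested a rho of -0.47. Vehicle replicate 2, set against its own group in the same way, also had lower values in longer genes, with a rho of -0.47 over the 61 genes and -0.14 over all genes, while the other libraries had a rho above 0. All are descriptions across genes, and the libraries of a group are set against each other, so their values are not independent. In the 15 secretory genes with exons under 1500 bases the median of this value was 0.10, and in the 16 with 4000 bases or more it was -0.25, where all genes tested had medians of 0.19 and -0.19. Among the 24 genes called higher, replicate 3 was the lowest FGF19 library in 17 and the highest in 3. Leaving it out gave 34 genes called higher among 62 tested, where 8% of all genes were then called higher, and these included all 24. The other 10 were Copa, Copb1, Copb2, Sec16a, Sec24c, Sec31a, Srp54a, Srp54c, Stt3b and Tmed8. When the trend of each library on exon length was instead removed through offsets in edgeR, 28 were called higher, against 5.33% of all genes, and all 24 were again among them. Cope, Sec11c, Sec24c and Stt3b were then called higher and Copg2 lower. The 3 genes with the largest rises, Tmed3, Sec24d and Sec23b, were called in every one of these fits.

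**Figure D4:**
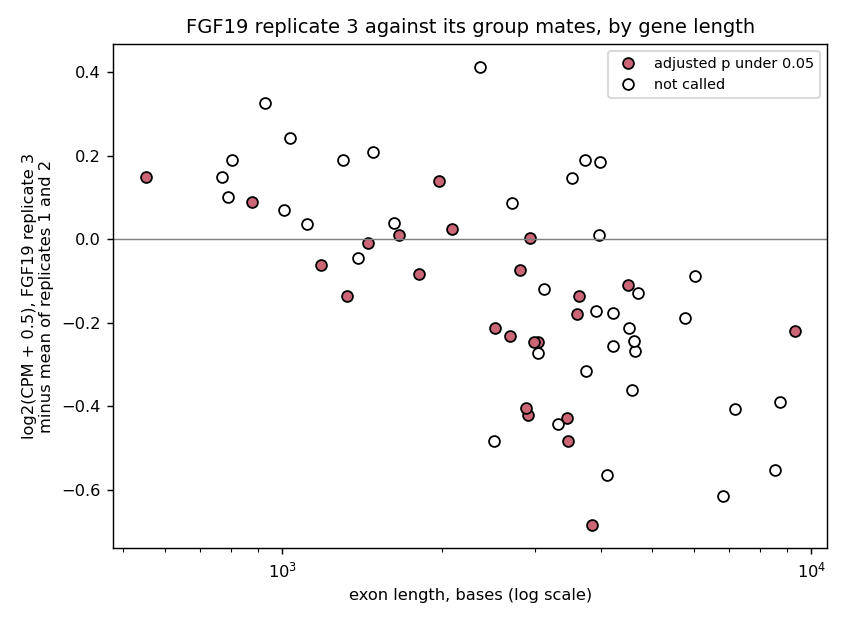
Level of each of the 61 tested genes in FGF19 replicate 3 relative to the mean of FGF19 replicates 1 and 2, as a difference of log2(CPM + 0.5), against exon length on a log scale, with filled points for the 24 genes called higher. The values fall with length, from a median of 0.10 under 1500 bases to -0.25 at 4000 bases or more.

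The same steps involve genes that the choice by symbol did not take in, such as glycan assembly enzymes, cargo receptors, tethers and SNAREs. Of 81 such genes 77 were tested, and 22 of these (28.6%) were called higher and 0 lower in the edgeR test, beside the 4.56% and 2.84% of all genes. At an unadjusted p under 0.05, 3 had a lower level, where 1417 of all 12559 genes tested did. DESeq2 called 0 lower, where it called 511 of all genes lower. The median log2 fold change of the 77 was 0.11. The count of higher genes was 9 without vehicle replicate 3, 11 without FGF19 replicate 1 or 2, 13 and 14 without vehicle replicates 1 and 2, and 25 without FGF19 replicate 3. The 5 with the lowest p act at several points of the route. Serp1, which encodes a protein that associates with the channel and whose exon positions overlap those of Eif2a, rose from 185 ± 10.4 to 304 ± 31.6 CPM (log2 fold change 0.72, adjusted p = 0.00314), and Tram1, for another protein beside the channel, from 91.3 ± 2.06 to 145 ± 15.3 CPM (0.67, adjusted p = 0.00379). Ostc, for a subunit of the oligosaccharyltransferase that works at the channel, rose from 32.4 ± 4.62 to 57.6 ± 3.89 CPM (0.83, adjusted p = 0.00339). Alg12, for a mannosyltransferase that builds the glycan, rose from 9.62 ± 1.01 to 17.9 ± 2.00 CPM (0.90, adjusted p = 0.00405). Kdelr2, for a receptor that returns ER proteins in COPI vesicles, rose from 66.9 ± 2.07 to 99.1 ± 5.36 CPM (0.57, adjusted p = 0.00399). In all 5 the call held with each library left out.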

How the data were processed

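Liver RNA of 3 vehicle and 3 FGF19 mice was sequenced on a HiSeq2000 as paired-end reads. The deposited values are raw read counts per gene, which the authors made with featureCounts 1.5.2 on the exons of mm9 genes. Per the file headers, counting ignored strand, took each mate of a pair as its own read and skipped reads with several alignments. The submitters' processing notes name bcl2fastq 2.17.1.14, Trimmomatic 0.36, FastQC 0.11.5, STAR 2.5.3a and edgeR, and the study's methods give another STAR version. A deposited table of the authors' own comparison (log2 fold changes, mean levels and p-values) was not used.

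The analysis used edgeR 4.0.16 (R 4.3.3). Genes kept by filterByExpr with the treatment group (12559 of 23284) were scaled by TMM and tested with the quasi-likelihood test without covariates, and p-values were adjusted by Benjamini-Hochberg over all of them. The study's methods name an edgeR pipeline and a threshold of p under 0.01, and not the kind of test. Standard errors are the log2 fold change divided by the square root of the F statistic. Chi-square between libraries of a group, divided by its degrees of freedom, was at least 8.25, so none is a duplicate. Scripts were tested on simulated data. Genes named with values are those called, the highest per kb in each step, the paired genes, those lower at an unadjusted p under 0.05 and, with their counts, those not tested, while the tested genes given in every library are the 2 called with the lowest p in each step. Tmed5, Tmed8, Tmed10, Sec22c, Sec23ip, Sec62, Sec63, Ssr4, Dad1, Srp9, Srp14, the Srp54 genes, Copa, Copb1, Copb2, Arcn1, Krtcap2, Magt1 and Tusc3, with the single markers, complete the account and were named after their values had been seen. The genes, lists and tests were chosen with earlier results of these data known. Alternatives were DESeq2 1.42.0, no TMM, no filter, the likelihood ratio test, a filter of 1 CPM in every library, limma-voom (limma 3.58.1), a replicate block, p under 0.01, the genes without shared exon positions, leaving out each library and, added after seeing the data, removal of the trend on exon length.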

Additional observations from a re-analysis of the deposited data

How the results depend on the processing

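Of the 24 secretory genes called higher, 15 were called in every fit that left out a library, and the number called higher was between 15 and 34 over those fits and between 18 and 30 over the other alternatives. DESeq2 and limma-voom called 25, the likelihood ratio test 26, no TMM scaling or no filter 23, the stricter filter 24, and 23 were called among the genes without shared exon positions. Over all genes, where the main fit called 573 higher, DESeq2 called 628 and limma-voom 544. The likelihood ratio test called 780, no TMM scaling 516, no filter 574 and the stricter filter 524. No other alternative than the removal of the length trend, with 1 (Copg2), called any of the 65 genes lower. The counts over all genes moved more. Higher genes numbered 370 with the replicate block and 236 to 1015 with a library left out. Lower genes numbered 579 with the likelihood ratio test, 164 with the replicate block, 551 with the length trend removed, 626 at p under 0.01 and 91 to 926 with a library left out. The cause of these shifts was not tested.

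With the replicate number as a block, 18 secretory genes were called higher, among them 2 of the SRP genes, 1 of the COPI genes and 2 of the p24 genes, and 13 of the other secretory pathway genes. Deviations of libraries with the same number correlated with r between -0.23 and -0.05, and 0 of 6 libraries correlated best with its own number. These are deviations from means of 3 libraries, which depend on each other, so they cannot settle whether the numbers pair the mice. At p under 0.01, 4 COPI genes were higher. With a library left out, the genes called higher were 1 to 7 for SRP, 1 to 3 for signal peptidase, 3 to 4 for glycan transfer, 2 to 5 for COPII, 1 to 5 for COPI, 2 to 5 for p24, 0 to 1 for SEC22 and 9 to 25 (with 0 to 1 lower) for the other secretory genes.

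The sign changed for Spcs1 with the length trend removed (0.019), and with a library left out for Sec23a (-0.13 to 0.16), Sec24a (-0.094 to 0.23), Sec24b (-0.072 to 0.025), Sec23ip (-0.082 to 0.092) and the Sec24a/Sec24b ratio (-0.046 to 0.20), all of which were near 0. The other 11 ratios kept their sign. Counts were low for Srp54a, Tmed6, Tmed11 and Sec61g, for reasons that were not tested, and 3 mice a group limit the ratios, whose smallest possible p is 0.1.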
